A study of Homo sapiens with 24 samples.

Results

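The centromere and kinetochore genes described here are 40 of the 58825 genes counted in RNA sequencing of SK-HEP-1 cells. They were taken by gene symbol from a list of names. No measured value served as a criterion, but the list was chosen with earlier results of these data known. By role they were 5 genes of centromeric chromatin and its loading, 14 of the constitutive centromere-associated network, 9 of the KNL1, MIS12 and NDC80 complexes, 6 of the outer kinetochore and corona, 3 of the SKA complex, 2 shugoshins and 1 centriole gene, CENPJ, which carries a centromere name. All 40 passed the filter on low counts and were tested.

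The centromere is marked by nucleosomes that hold the histone H3 variant CENP-A in place of H3. On that chromatin sits a constitutive network of CENP proteins, which in mitosis recruits the outer kinetochore that grips spindle microtubules. Many of the genes involved are transcribed mainly in G2 and mitosis, and a stabilised p53 is known to lower many genes of that class through CDKN1A, which encodes the CDK inhibitor p21, and the DREAM repressor complex.

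SK-HEP-1 is a human cell line derived from a tumour of the liver. All groups were CRISPR interference (CRISPRi) lines of it, in which a guide RNA directs a catalytically inactive Cas9 with a repressor to a promoter. The control lines NTC1 and NTC2 each carried 1 of 2 non-targeting guides, and the lines sg2, sg4, sg5 and sg6 each carried 1 guide against PURPL, a long noncoding RNA induced by p53. Each line was given DMSO, the vehicle, or 10 µM Nutlin-3a, which blocks MDM2 from binding p53, and was harvested after 6 h. Each of the 12 combinations had 2 harvests, numbered 1 and 3 and labelled as biological replicates, so there were 24 libraries. A guide is represented by 1 line, so differences between guides and differences between lines cannot be told apart. In bulk RNA, fewer cells of a type and less RNA per cell cannot be told apart either.

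Estimated counts per library summed to 66.4 M to 92.1 M. CPM below means a count relative to the TMM-adjusted total of its library, in parts per M. The labels class the cells as endothelial, but the endothelial genes PECAM1 and CDH5 did not exceed 0.0277 and 0.0591 CPM in any library. Of 3 mesenchymal genes, VIM was at 3566 to 4871 CPM, ACTA2 at 19.1 to 108.6 CPM and COL1A1 at 0.309 to 6.31 CPM. The targeted gene PURPL was at 7.47 and 7.40 CPM in NTC1 and at 8.44 and 10.1 CPM in NTC2 in DMSO, and at 0.273 to 0.868 CPM (median 0.530) in the 8 PURPL guide libraries. With Nutlin-3a PURPL was at 29.7 to 38.5 CPM in the 4 NTC libraries and at 0.743 to 2.90 CPM in all 8 guide libraries. The library of sg2 with Nutlin-3a from harvest 1 stood apart from the rest. Its levels, relative to each gene's median over libraries, climbed by 1.207 on the log2 scale for every 10 points of transcript GC content, against -0.153 to 0.257 in the other 23. It is called the divergent library, and it was left out of the fits unless stated. CDKN1A and MDM2, direct targets of p53, rose with Nutlin-3a by 3.55 (SE 0.10) and 3.18 on the log2 scale in the NTC lines and by 3.85 and 3.21 in the guide lines.

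With 6 h of Nutlin-3a, 30 of the 40 genes fell in the NTC lines and 0 rose, where 16.2% of all 16371 genes tested fell and 9.03% rose. The threshold was a Benjamini-Hochberg adjusted p of 0.05 in edgeR's quasi-likelihood F test, adjusted over all genes tested. The median log2 fold change of the 40 genes was -0.46 and that of all genes tested was -0.06. In the PURPL guide lines 34 fell and 1 rose, CENPW, where 23.0% of all genes fell and 16.2% rose, and the median was -0.52 against 0 over all genes. The 30 genes that fell in the NTC lines all fell in the guide lines too. CENPP, KNL1, KNTC1 and SKA2 passed the threshold in the guide lines alone, which had 15 libraries in the fit against 8, and 5 genes passed in neither: CENPH, CENPM, CENPT, CENPX and PMF1.

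**Figure D1:**
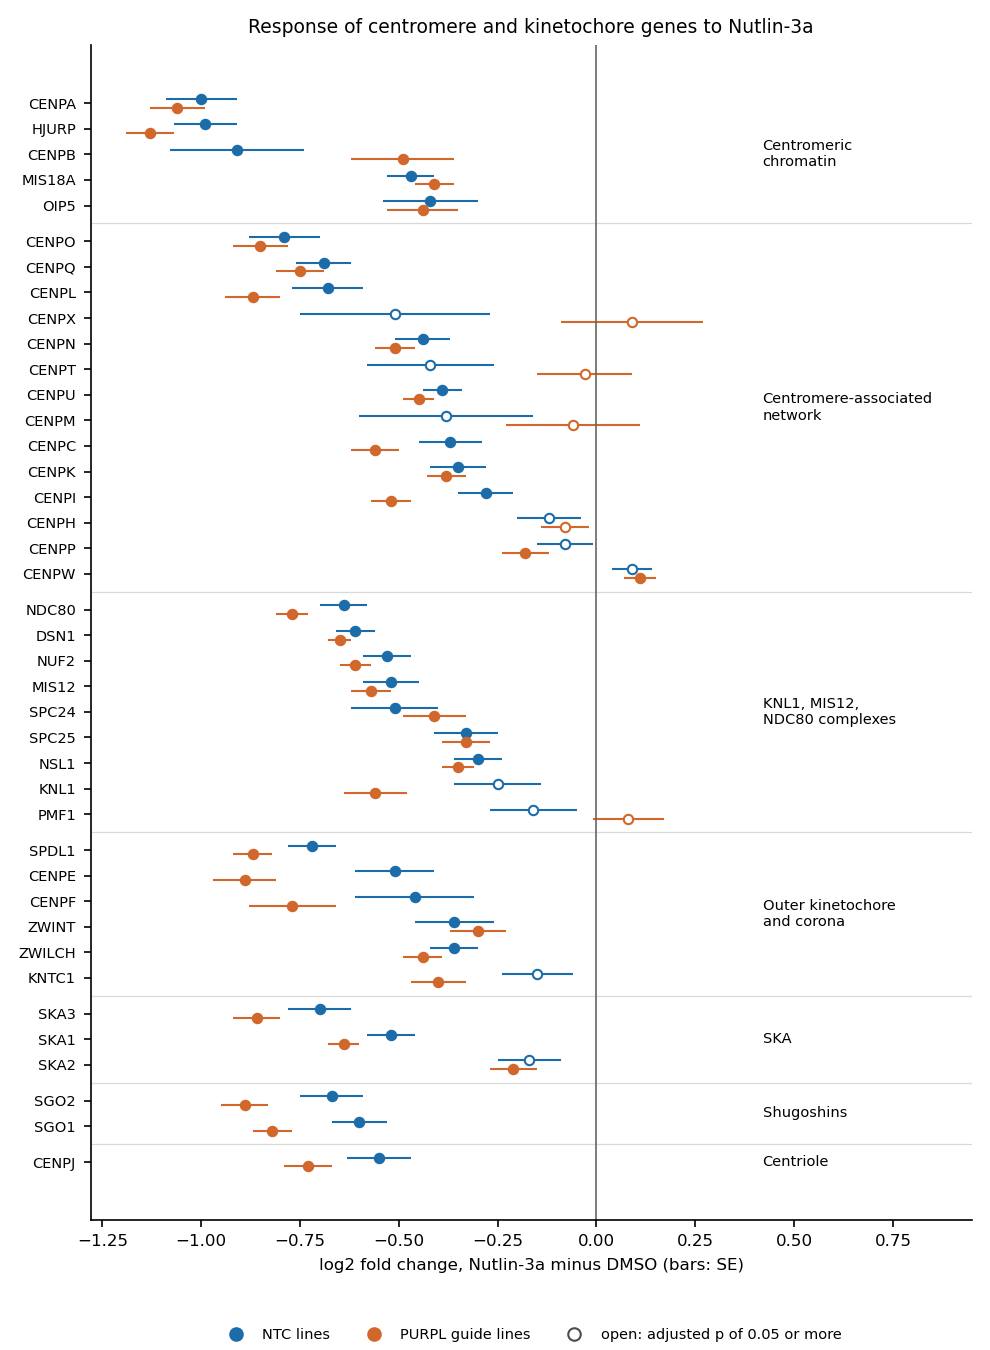
Log2 fold change with Nutlin-3a (x axis, Nutlin-3a minus DMSO) of the 40 genes (y axis, by role) in the NTC lines (blue) and the PURPL guide lines (orange), with bars of 1 SE. Filled points passed the adjusted p of 0.05 and open points did not. CENPA and HJURP lie near -1 in both, and CENPW is the only filled point above 0.

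The separation held in single libraries. In the NTC lines 26 of the 40 genes were lower in each Nutlin-3a library than in any DMSO library, against 12.6% of all genes tested. In the guide lines 30 were, against 12.4%. Over all 23 libraries fitted 23 were, against 6.92%. The sign of the change was negative in 6 of 6 lines for 31 genes, positive in 6 of 6 for CENPW, and mixed for 8. The median log2 ratio of the 40 genes within a line was -0.40 in NTC1, -0.49 in NTC2, -0.44 in sg2, -0.55 in sg4, -0.60 in sg5 and -0.50 in sg6.

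**Figure D2:**
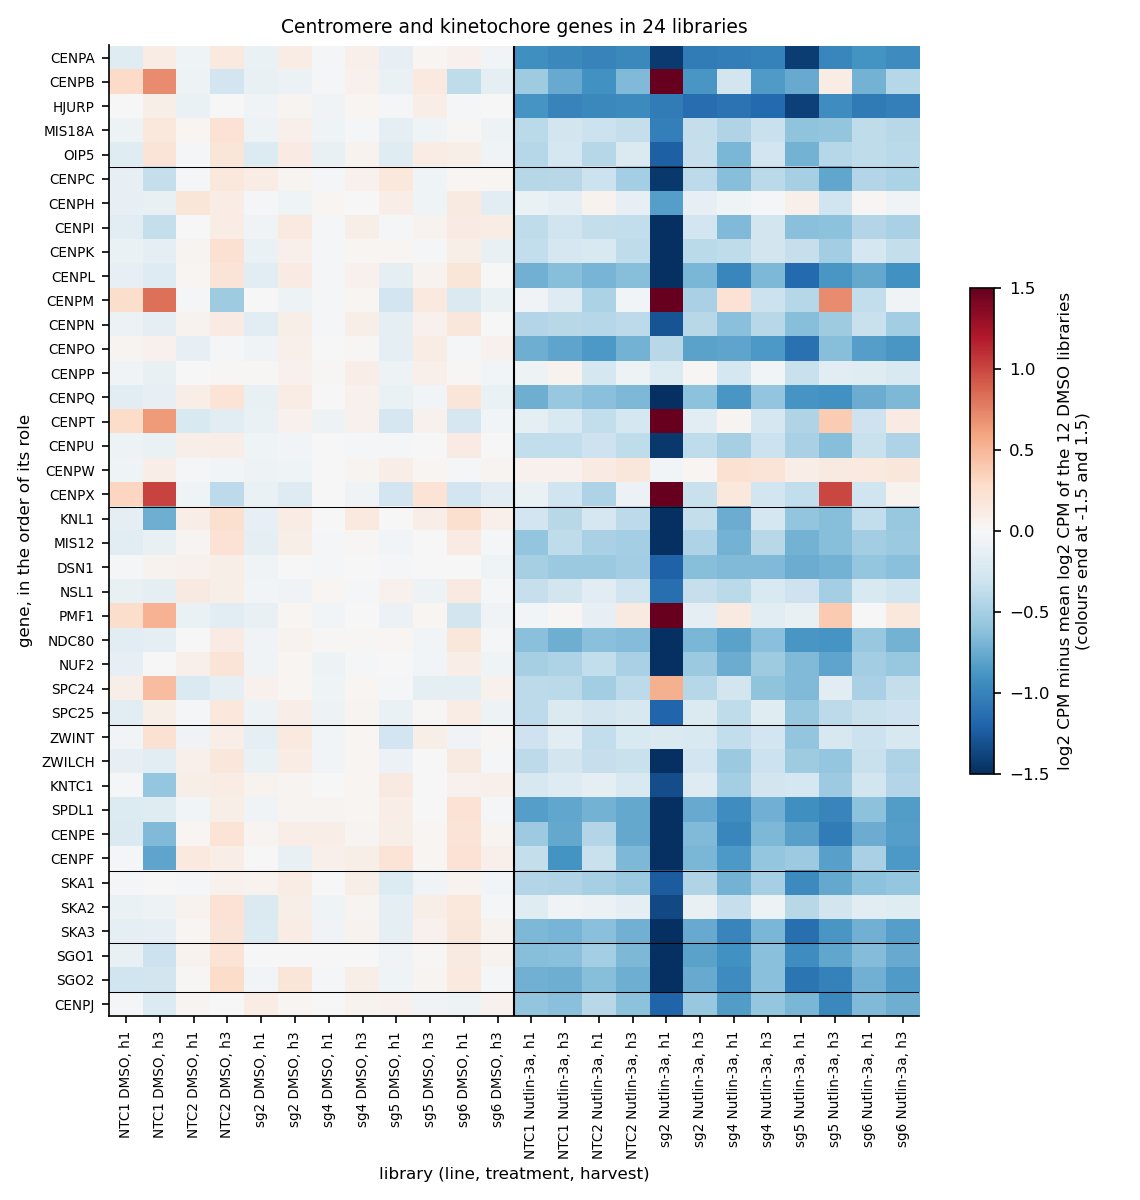
Log2 CPM of each gene (y axis, by role) in each of the 24 libraries (x axis, by treatment, line and harvest), relative to the mean of that gene over the 12 DMSO libraries. Colours end at -1.5 and 1.5. Blue fills most of the Nutlin-3a side, and the column of sg2 with Nutlin-3a from harvest 1 departs from its neighbours in both directions.

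Promoter sequences are shown because many genes of the set moved together. Of the 40 genes, 33 had a promoter in the RefSeq table for GRCh38.p14. The 250 bases upstream of each start were searched on both strands for TTTGAA or TTCGAA (the core of the cell cycle genes homology region, bound by the MuvB core of DREAM), for CCAAT (the NF-Y box) and for TTCCCGC or TTGGCGC (forms of the E2F site). No sites of different motifs overlapped. Within 100 bases of the start, TTTGAA or TTCGAA was found in 4 of the 33 promoters (12.1%), against 4.92% of all 35116 promoters and 2.68% of those of genes tested here. CCAAT was found there in 16 (48.5%), against 18.1% and 21.5%, and an E2F form in 5 (15.2%), against 3.46% and 5.36%. Over the whole 250 bases TTTGAA or TTCGAA was found in 6 (18.2%, against 14.3% of all promoters and 9.69% of those of genes tested). CCAAT was found in 19 (57.6%, against 32% and 34.8%) and an E2F form in 9 (27.3%, against 7.81% and 12.4%).

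The 4 promoters with TTTGAA close to the start follow, each 5′ to 3′ on the strand of the gene. Each is the 150 bases upstream of the start in RefSeq, which can lie inside the interval of the gene in GENCODE. All 4 stretches overlap that interval, and the stretch of CENPA lies wholly inside it. Capitals mark TTTGAA or its reverse complement and CCAAT or its reverse complement. They lie at chr5:169583623-169583772 on the plus strand for SPDL1, chr2:26785906-26786055 on the plus strand for CENPA, chr4:67545504-67545653 on the minus strand for CENPC and chr10:56361260-56361409 on the minus strand for ZWINT (GRCh38.p14).
SPDL1: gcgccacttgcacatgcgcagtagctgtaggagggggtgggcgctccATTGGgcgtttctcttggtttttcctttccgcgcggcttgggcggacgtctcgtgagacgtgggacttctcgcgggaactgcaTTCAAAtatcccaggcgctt
CENPA: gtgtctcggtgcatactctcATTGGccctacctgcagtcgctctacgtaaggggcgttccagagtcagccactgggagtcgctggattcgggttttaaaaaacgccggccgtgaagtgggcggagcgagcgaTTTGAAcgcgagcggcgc
CENPC: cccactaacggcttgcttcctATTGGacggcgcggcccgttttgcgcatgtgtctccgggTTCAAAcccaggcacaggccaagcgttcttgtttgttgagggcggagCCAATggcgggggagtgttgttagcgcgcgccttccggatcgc
ZWINT: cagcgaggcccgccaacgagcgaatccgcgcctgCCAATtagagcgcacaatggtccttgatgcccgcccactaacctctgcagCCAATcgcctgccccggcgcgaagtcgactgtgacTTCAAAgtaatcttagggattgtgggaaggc
The TTTGAA match lay 20 to 15 bases upstream of the start in SPDL1, 18 to 13 in CENPA, 90 to 85 in CENPC and 31 to 26 in ZWINT. All 4 genes fell with Nutlin-3a in both classes of line. Of the 27 promoters of genes that fell in the NTC lines, 4 held TTTGAA or TTCGAA within 100 bases, 13 held CCAAT and 5 held an E2F form, and of the 6 promoters of genes not called these numbers were 0, 3 and 0. A match is a description of the letters and not evidence of binding.

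Among genes of centromeric chromatin, all 5 fell in both classes of line. Their median log2 changes were -0.91 in the NTC lines and -0.49 in the guide lines. Both medians are the value of CENPB alone, which was -0.64 and -0.66 with the GC trend of each library removed. CENPA, HJURP, MIS18A and OIP5 each had changes of similar size in the 2 classes. HJURP (chr2:233833416-233854566, minus strand, hg38) encodes the chaperone that deposits CENP-A. It was at 76.1 and 80.9 CPM in NTC1 and at 70.9 and 76.6 CPM in NTC2 in DMSO, and at 41.3 and 38 CPM in NTC1 and 38.9 and 39.1 CPM in NTC2 with Nutlin-3a. The guide lines were at 73.1 to 81.3 CPM (median 75.6, n = 8) in DMSO and at 28.9 to 40 CPM (median 35.2, n = 7) with Nutlin-3a. No Nutlin-3a library reached the level of any DMSO library. It fell, with a log2 fold change of -0.99 (SE 0.08, adjusted p = 1.4e-07) in the NTC lines and -1.13 (SE 0.06, adjusted p = 4.04e-10) in the guide lines.

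CENPA itself (chr2:26764289-26801067, plus strand), the gene of the variant histone, was at 58.1 and 71.1 CPM in NTC1 and at 62.9 and 72.9 CPM in NTC2 in DMSO. With Nutlin-3a it was at 34.9 and 33.6 CPM in NTC1 and at 32.9 and 33.8 CPM in NTC2. CENPA in the guide lines lay at 60.4 to 70.9 CPM (median 65.7) in DMSO and at 24.6 to 35.4 CPM (median 32.5) with Nutlin-3a. Both classes of line thus held about the same levels before and after, with a gap between the treatments. Its log2 fold change was -1 (SE 0.09, adjusted p = 5.34e-07) in the NTC lines and -1.06 (SE 0.07, adjusted p = 4.17e-09) in the guide lines. CENPA shares 138 exonic bases with SLC35F6 on the same strand, which leaves its count with some uncertainty.

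The Mis18 complex licenses the centromere for new CENP-A. Its subunit OIP5 had the largest p of the 5 genes. OIP5 was at 21.6 and 28.2 CPM in NTC1 and 24.3 and 27.9 CPM in NTC2 in DMSO, and at 18.2 and 20.4 CPM in NTC1 and 18.3 and 21.1 CPM in NTC2 with Nutlin-3a. All DMSO values lay above all Nutlin-3a values in the NTC lines, with a gap of less than 1 CPM. Its log2 fold change was -0.42 (SE 0.12, adjusted p = 0.0128), and the call was lost without NTC1 DMSO harvest 3 (adjusted p = 0.0738), NTC2 DMSO harvest 3 (0.0939), NTC1 Nutlin-3a harvest 1 (0.0547) or NTC2 Nutlin-3a harvest 1 (0.0646). OIP5 fell by 0.44 on the log2 scale in the guide lines (SE 0.09). It shares 470 exonic bases with the antisense gene OIP5-AS1. MIS18A, the other Mis18 gene measured, fell by 0.47 (SE 0.06) and by 0.41 (SE 0.05).

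CENPB binds a short box in alpha-satellite DNA. It was at 17.5 and 23.4 CPM in NTC1 and at 13.6 and 11.7 CPM in NTC2 in DMSO, and at 7.62 to 9.86 CPM in the 4 NTC libraries with Nutlin-3a. Its log2 fold change was -0.91 (SE 0.17, adjusted p = 0.000844) in the NTC lines and -0.49 (SE 0.13, adjusted p = 0.00647) in the guide lines. CENPB has the highest GC content of the 40 genes (66.2%), and it was at 59.6 CPM in the divergent library, against 7.78 to 15.4 CPM in the other 7 guide libraries with Nutlin-3a. With that library in the fit the log2 fold change in the guide lines was 0.05 (adjusted p = 0.911). With the GC trend of each library removed it was -0.64 in the NTC lines and -0.66 in the guide lines.

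The constitutive centromere-associated network was less uniform. Of its 14 genes, 8 fell in the NTC lines (median log2 change -0.38), and in the guide lines 9 fell and 1 rose (median -0.41). CENPO, CENPL and CENPQ had the largest falls of the network in the NTC lines, and CENPL, CENPO and CENPQ in the guide lines. CENPQ (chr6:49463378-49493107, plus strand), a subunit of the CENP-O/P/Q/U group, was at 60.3 and 62.5 CPM in NTC1 and 72.4 and 78.2 CPM in NTC2 in DMSO, and at 40.7 and 45.7 CPM in NTC1 and 44.0 and 42.5 CPM in NTC2 with Nutlin-3a. CENPQ in the guide lines was at 62.6 to 76.8 CPM (median 66.6) and at 36.1 to 45.1 CPM (median 40.4). The treatments did not overlap, and the log2 fold change was -0.69 (SE 0.07, adjusted p = 2.85e-06) in the NTC lines and -0.75 (SE 0.06, adjusted p = 1.53e-08) in the guide lines.

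CENPO (chr2:24793136-24822376, plus strand) was at 56.1 and 56.6 CPM in NTC1 and 49.7 and 53.2 CPM in NTC2 in DMSO. It was at 32.8 and 31.3 CPM in NTC1 and 29.9 and 33.3 CPM in NTC2 with Nutlin-3a, and in the guide lines it went from 49.3 to 58.7 CPM (median 54.7) to 25.1 to 35.0 CPM (median 30.7). Its levels were separated by treatment in all 23 libraries. CENPO fell by 0.79 (SE 0.09, adjusted p = 4.09e-06) and by 0.85 (SE 0.07, adjusted p = 2.78e-08) on the log2 scale in the NTC and the guide lines. It shares 1488 exonic bases with ADCY3 on the opposite strand. The use of strand in counting was not given, so the CENPO count may hold reads of that gene.

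CENPU, which docks Polo-like kinase 1 at the centromere, was at 103.7 and 102.3 CPM in NTC1 and 116.8 and 117.1 CPM in NTC2 in DMSO, and at 85.2 and 85.2 CPM in NTC1 and 88.5 and 83.9 CPM in NTC2 with Nutlin-3a. Among guide libraries CENPU was at 104.7 to 119.3 CPM (median 109.1) and at 70.6 to 87.8 CPM (median 79.8). The gap was clear in every line, but smaller than for CENPO and CENPQ. Its log2 fold change was -0.39 (SE 0.05, adjusted p = 1.55e-05) in the NTC lines and -0.45 (SE 0.04, adjusted p = 5.03e-08) in the guide lines.

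CENPP, the direct partner of CENPO, had the largest p of the network in the NTC lines. It was at 11.1 and 10.6 CPM in NTC1 and 11.4 and 11.6 CPM in NTC2 in DMSO, and at 10.9 and 11.9 CPM in NTC1 and 9.56 and 10.9 CPM in NTC2 with Nutlin-3a. These ranges overlapped, and the log2 fold change was -0.08 (SE 0.07, adjusted p = 0.473). In the guide lines CENPP was at 10.9 to 12.3 CPM (median 11.6) and 9.12 to 11.6 CPM (median 10.1), and fell by 0.18 (SE 0.06, adjusted p = 0.0158). That call was lost without sg2 DMSO harvest 3 (adjusted p = 0.0534), sg4 DMSO harvest 3 (0.0617) or sg5 DMSO harvest 3 (0.0626), and with no filter (-0.15, adjusted p = 0.216). CENPP shares 3719 exonic bases with IPPK on the opposite strand. Since the use of strand in counting was not given, the response of CENPP alone is uncertain.

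The bridge from CENP-A nucleosomes to the rest of the network also fell. CENPC, which binds CENP-A nucleosomes and the MIS12 complex, had log2 fold changes of -0.37 (SE 0.08) in the NTC lines and -0.56 (SE 0.06) in the guide lines. CENPN, which reads the CENP-A nucleosome, had -0.44 (SE 0.07) and -0.51 (SE 0.05), and its partner CENPL had -0.68 (SE 0.09) and -0.87 (SE 0.07). All 3 passed the threshold in both classes of line.

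In the CENP-H/I/K/M group, CENPI had -0.28 (SE 0.07, adjusted p = 0.00599) and CENPK -0.35 (SE 0.07, adjusted p = 0.000958) in the NTC lines, and both fell further from 0 in point estimate in the guide lines, at -0.52 and -0.38. The CENPI call in the NTC lines was lost without NTC1 DMSO harvest 1 (adjusted p = 0.0733) or NTC2 DMSO harvest 3 (0.0903). CENPH had -0.12 (SE 0.08, adjusted p = 0.302) and -0.08 (SE 0.06, adjusted p = 0.323). CENPM had -0.38 (SE 0.22, adjusted p = 0.247) and -0.06 (SE 0.17, adjusted p = 0.794), with the lowest count of the 40 genes, 128 in 1 library. The 4 genes of this group thus split into 2 that fell and 2 that did not pass.

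The histone-fold proteins CENP-T, CENP-W and CENP-X form a nucleosome-like unit with CENP-S. CENPW (chr6:126340174-126348875, plus strand) was at 20.2 and 22.6 CPM in NTC1 and 20.8 and 20.5 CPM in NTC2 in DMSO, and at 22.1 and 22.2 CPM in NTC1 and 23.1 and 23.8 CPM in NTC2 with Nutlin-3a. CENPW in the guide lines was at 20.1 to 22.6 CPM (median 21.4) and at 21.6 to 24.7 CPM (median 23.4). The Nutlin-3a libraries were higher on average and overlapped the DMSO libraries. CENPW had a log2 fold change of 0.09 (SE 0.05, adjusted p = 0.279) in the NTC lines and of 0.11 (SE 0.04, adjusted p = 0.0394) in the guide lines. The rise in the guide lines was no longer called without sg6 DMSO harvest 1 (adjusted p = 0.0781), sg4 Nutlin-3a harvest 1 (0.0808) or sg6 Nutlin-3a harvest 3 (0.0876), with the divergent library added (0.0661) or with no filter (0.175). DESeq2 called the rise in the NTC lines as well (0.15, adjusted p = 0.0203), and the sign was positive under all the settings run.

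CENPX, at 63.9% GC, was at 8.57 and 13.8 CPM in NTC1 and 6.56 and 5.22 CPM in NTC2 in DMSO, and at 4.97 to 6.46 CPM in the 4 NTC libraries with Nutlin-3a. Only NTC1 in DMSO stood above the other NTC libraries by a clear margin. Its log2 fold change was -0.51 (SE 0.24, adjusted p = 0.131) in the NTC lines and 0.09 (SE 0.18, adjusted p = 0.728) in the guide lines. CENPX was called in the NTC lines with no filter (-0.47, adjusted p = 0.00185), and without NTC1 DMSO harvest 3 it was at -0.31 (adjusted p = 0.44). CENPT, which connects the network to NDC80, had -0.42 (SE 0.16, adjusted p = 0.0665) and -0.03 (SE 0.12, adjusted p = 0.882), and it was called in the NTC lines without NTC1 DMSO harvest 1 (-0.47, adjusted p = 0.0471), with no filter (0.0198), with the GC trend removed (-0.26, adjusted p = 0.0313) and with the harvest number as a block (0.0355). Its exons share bases with 3 genes on the opposite strand, 596 of them with TSNAXIP1.

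**Figure D3:**
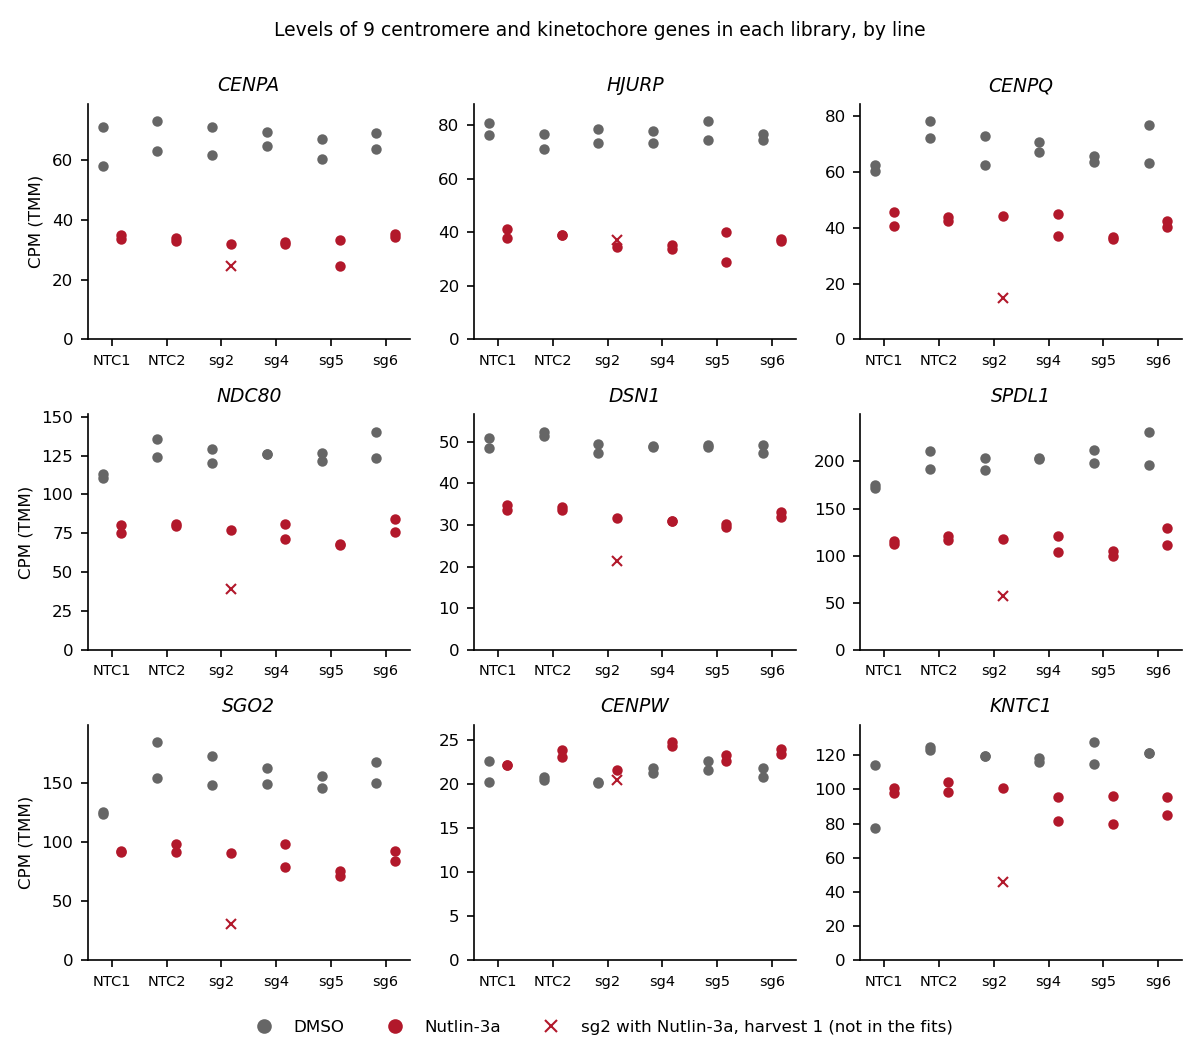
CPM (y axis, from 0) of 9 genes in each library by line (x axis), with DMSO in grey and Nutlin-3a in red. The cross is the divergent library. In CENPA, HJURP, CENPQ, NDC80, DSN1, SPDL1 and SGO2 each line has both of its grey points above its red points, whereas CENPW is slightly higher and KNTC1 overlaps in NTC1.

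In the KNL1, MIS12 and NDC80 complexes, the core microtubule-binding machine, 7 of 9 genes fell in the NTC lines (median -0.51) and 8 of 9 in the guide lines (median -0.56). DSN1 (chr20:36751791-36773818, minus strand), a subunit of the MIS12 complex, had the smallest p of the 40 genes. It was at 48.4 and 50.9 CPM in NTC1 and 51.3 and 52.3 CPM in NTC2 in DMSO, and at 34.8 and 33.6 CPM in NTC1 and 33.6 and 34.3 CPM in NTC2 with Nutlin-3a. In the guide lines DSN1 was at 47.2 to 49.3 CPM (median 48.9) and at 29.5 to 33.0 CPM (median 31.0). The spread within a treatment was a few CPM and the treatments lay far apart. DSN1 had a log2 fold change of -0.61 (SE 0.05, adjusted p = 5.16e-08) in the NTC lines and -0.65 (SE 0.03, adjusted p = 2.64e-10) in the guide lines.

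NDC80 (chr18:2571511-2616635, plus strand) encodes the subunit that touches the microtubule. It was at 110.6 and 113.1 CPM in NTC1 and 124.2 and 135.4 CPM in NTC2 in DMSO, and at 80.3 and 75.0 CPM in NTC1 and 80.8 and 79.6 CPM in NTC2 with Nutlin-3a. NDC80 in the guide lines was at 120.4 to 140.2 CPM (median 126.0) and 67.4 to 84.2 CPM (median 76.0). No ranges overlapped. NDC80 had log2 fold changes of -0.64 (SE 0.06, adjusted p = 3.26e-07) and -0.77 (SE 0.04, adjusted p = 5.71e-10).

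NUF2 (chr1:163266576-163355764, plus strand), the partner of NDC80 in the same dimer, was at 129.6 and 142.1 CPM in NTC1 and 148.6 and 162.1 CPM in NTC2 in DMSO, and at 100.4 and 102.9 CPM in NTC1 and 109.6 and 100.7 CPM in NTC2 with Nutlin-3a. NUF2 in the guide lines was at 134.1 to 150.8 CPM (median 137.7) and 81.9 to 98.6 CPM (median 95.6). NUF2 was again separated by treatment in every library fitted, with log2 fold changes of -0.53 (SE 0.06, adjusted p = 4.18e-06) and -0.61 (SE 0.04, adjusted p = 1.09e-08). The other dimer of the complex, SPC24 and SPC25, fell by 0.51 (SE 0.11) and 0.33 (SE 0.08) in the NTC lines and by 0.41 (SE 0.08) and 0.33 (SE 0.06) in the guide lines. The SPC25 call in the NTC lines was lost without NTC2 DMSO harvest 3 (adjusted p = 0.0557), and the SPC24 call in the guide lines with the divergent library added (-0.26, adjusted p = 0.102).

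Of the other MIS12 complex genes, MIS12 fell by 0.52 (SE 0.07) and 0.57 (SE 0.05) and NSL1 by 0.30 (SE 0.06) and 0.35 (SE 0.04) in the NTC and the guide lines. The fourth subunit, PMF1, was at 20.0 and 23.9 CPM in NTC1 and 15.6 and 14.8 CPM in NTC2 in DMSO, and at 16.2 and 16.9 CPM in NTC1 and 15.3 and 18.3 CPM in NTC2 with Nutlin-3a. PMF1 in the guide lines was at 13.8 to 17.0 CPM (median 16.1) and at 14.8 to 22.0 CPM (median 16.6). The treatments overlapped in both classes of line. Its log2 fold change was -0.16 (SE 0.11, adjusted p = 0.323) and 0.08 (SE 0.09, adjusted p = 0.517). PMF1 shares 587 exonic bases with the readthrough gene PMF1-BGLAP on the same strand, and reads there cannot be assigned by strand. KNL1, the scaffold for checkpoint proteins, had -0.25 (SE 0.11, adjusted p = 0.117) in the NTC lines and fell by 0.56 (SE 0.08) in the guide lines. KNL1 was called in the NTC lines without NTC1 DMSO harvest 3 (-0.38, adjusted p = 0.00847) and with no filter (-0.21, adjusted p = 0.0334), and without NTC1 DMSO harvest 1 it was at -0.05 (adjusted p = 0.742).

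In the outer kinetochore and corona, 5 of 6 genes fell in the NTC lines (median -0.41) and all 6 in the guide lines (median -0.60). SPDL1 (chr5:169583634-169604778, plus strand) encodes Spindly, the adaptor that brings dynein to kinetochores. It was at 171.9 and 175.1 CPM in NTC1 and 192.4 and 211.0 CPM in NTC2 in DMSO, and at 112.2 and 115.5 CPM in NTC1 and 121.3 and 116.6 CPM in NTC2 with Nutlin-3a. Guide libraries held SPDL1 at 190.8 to 231.3 CPM (median 202.9) and at 99.9 to 129.1 CPM (median 110.9). The 2 treatments were far apart in each line. The log2 fold change of SPDL1 was -0.72 (SE 0.06, adjusted p = 3.26e-07) and -0.87 (SE 0.05, adjusted p = 4.56e-10).

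The RZZ complex loads Spindly, and its genes KNTC1 and ZWILCH differed from SPDL1 in size of change. KNTC1 was at 114.1 and 77.5 CPM in NTC1 and 122.8 and 124.9 CPM in NTC2 in DMSO, and at 97.9 and 100.9 CPM in NTC1 and 104.5 and 98.3 CPM in NTC2 with Nutlin-3a. NTC1 DMSO harvest 3 lay below every NTC library with Nutlin-3a. The guide lines were at 114.7 to 127.4 CPM (median 119.3) and 79.5 to 101.0 CPM (median 95.3), with no overlap. The log2 fold change of KNTC1 was -0.15 (SE 0.09, adjusted p = 0.254) in the NTC lines and -0.40 (SE 0.07, adjusted p = 0.000207) in the guide lines. Without NTC1 DMSO harvest 3 it was -0.27 in the NTC lines (adjusted p = 0.00752), and without NTC1 DMSO harvest 1 it was 0.04 (adjusted p = 0.763). ZWILCH fell by 0.36 (SE 0.06) and 0.44 (SE 0.05).

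CENPE, a plus-end-directed kinesin, and CENPF, a very large coiled-coil protein of the corona, were low in that same library. CENPE was at 125.4 and 92.4 CPM in NTC1 and 149.4 and 169.3 CPM in NTC2 in DMSO, and at 86.0 to 107.8 CPM in the NTC libraries with Nutlin-3a. CENPF was at 663.1 and 392.4 CPM in NTC1 and 754.0 and 728.5 CPM in NTC2 in DMSO, and at 365.6 to 541.1 CPM with Nutlin-3a. The lower NTC1 value put both genes in overlap with the Nutlin-3a range. CENPE fell by 0.51 (SE 0.10, adjusted p = 0.001) in the NTC lines and 0.89 (SE 0.08) in the guide lines, and CENPF by 0.46 (SE 0.15, adjusted p = 0.0289) and 0.77 (SE 0.11).

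The CENPF call in the NTC lines was lost without NTC1 DMSO harvest 1 (-0.21, adjusted p = 0.252), NTC2 DMSO harvest 1 (0.11), NTC2 DMSO harvest 3 (0.0898), NTC1 Nutlin-3a harvest 3 (0.144) or NTC2 Nutlin-3a harvest 3 (0.116), and with RLE size factors (0.0677). Without NTC1 DMSO harvest 3 its log2 fold change was -0.62 (adjusted p = 0.00212). MKI67, a proliferation marker outside the set, was also low in that library, at 450.2 CPM. The other NTC libraries in DMSO held it at 811.3 to 853.4 CPM. KNL1 was at 116.2 CPM there and at 175.5 to 228.3 CPM in those. The longest transcripts of CENPF, KNL1, CENPE and KNTC1 hold 10307, 9573, 8612 and 6975 bases. ZWINT and HJURP, at 1961 and 3187 bases, had their highest NTC level in DMSO there, at 174.4 and 80.9 CPM. CENPI, at 3262 bases, had its lowest, at 83.9 CPM. The part of transcript length was not tested. Beyond these refits, the part this library plays in the values of single genes was not tested either. ZWINT, a partner of KNL1, fell by 0.36 (SE 0.10, adjusted p = 0.0105) in the NTC lines and 0.30 (SE 0.07) in the guide lines. Its NTC call was lost without NTC1 DMSO harvest 3 (adjusted p = 0.0552), NTC2 DMSO harvest 3 (0.0787) or NTC2 Nutlin-3a harvest 1 (0.0532).

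The SKA complex helps NDC80 hold on to moving microtubule ends. SKA1 (chr18:50374995-50394173, plus strand) was at 64.9 and 66.6 CPM in NTC1 and 65.4 and 69.5 CPM in NTC2 in DMSO, and at 49.0 and 48.8 CPM in NTC1 and 46.9 and 45.1 CPM in NTC2 with Nutlin-3a. SKA1 in the guide lines was at 57.7 to 71.8 CPM (median 67.3) and 34.2 to 48.7 CPM (median 43.4). No ranges overlapped, and SKA1 fell by 0.52 (SE 0.06, adjusted p = 4.76e-06) and 0.64 (SE 0.04, adjusted p = 6.89e-09). SKA3 fell by 0.70 (SE 0.08) and 0.86 (SE 0.06).

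SKA2, the remaining subunit, moved less. It was at 201.6 and 204.4 CPM in NTC1 and 223.9 and 250.6 CPM in NTC2 in DMSO, and at 191.0 and 207.7 CPM in NTC1 and 203.6 and 197.5 CPM in NTC2 with Nutlin-3a. Guide libraries held SKA2 at 186.1 to 240.6 CPM (median 217.6) and 162.6 to 204.7 CPM (median 190.1). Its treatments overlapped in both classes. The log2 fold change was -0.17 (SE 0.08, adjusted p = 0.128) in the NTC lines and -0.21 (SE 0.06, adjusted p = 0.00791) in the guide lines, and the latter was not called with the GC trend removed (-0.10, adjusted p = 0.162) or with the divergent library added (adjusted p = 0.0651).

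The shugoshins guard cohesin at the centromere, and both fell. SGO2 (chr2:200510008-200583782, plus strand) was at 123.4 and 125.5 CPM in NTC1 and 153.4 and 183.8 CPM in NTC2 in DMSO, and at 92.2 and 91.4 CPM in NTC1 and 98 and 91.3 CPM in NTC2 with Nutlin-3a. The guide lines were at 145.1 to 172.1 CPM (median 152.9) and 71.2 to 98.4 CPM (median 84.1). In DMSO both NTC2 libraries lay above both NTC1 libraries, and all DMSO values lay above all Nutlin-3a values. SGO2 fell by 0.67 (SE 0.08, adjusted p = 5.07e-06) and 0.89 (SE 0.06, adjusted p = 2.95e-09).

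SGO1 was at 30.1 and 26.0 CPM in NTC1 and 33.6 and 37.5 CPM in NTC2 in DMSO, and at 20.9 and 21.0 CPM in NTC1 and 22.8 and 20.4 CPM in NTC2 with Nutlin-3a. The guide lines were at 31.3 to 35.6 CPM (median 32.7) and 17.0 to 21.0 CPM (median 18.9). No ranges overlapped, and SGO1 fell by 0.60 (SE 0.07, adjusted p = 6.79e-06) and 0.82 (SE 0.05, adjusted p = 3.41e-09). It shares 679 exonic bases with SGO1-AS1. CENPJ, whose protein builds centrioles and tethers pericentriolar material, was at 26.0 and 23.0 CPM in NTC1 and 27.2 and 26.6 CPM in NTC2 in DMSO, and at 17.6 and 17.1 CPM in NTC1 and 19.9 and 17.3 CPM in NTC2 with Nutlin-3a. Guide libraries held CENPJ at 25.2 to 28.6 CPM (median 27.3) and 13.6 to 17.9 CPM (median 16.5). It too was separated by treatment in every library fitted, and fell by 0.55 (SE 0.08, adjusted p = 4.47e-05) and 0.73 (SE 0.06, adjusted p = 3.15e-08).

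Resting levels differed widely among genes whose proteins act in fixed proportion. Per kilobase of longest transcript, mean levels in the NTC lines in DMSO ran from 1.27 CPM for CENPP to 79.2 for ZWINT, with SKA2 at 78.7, NUF2 at 73.9 and SPDL1 at 70.3. In the NDC80 complex NUF2 was at 73.9, NDC80 at 55.6, SPC25 at 52.3 and SPC24 at 9.98 CPM per kilobase. In the SKA complex SKA2 was at 78.7, SKA3 at 33.8 and SKA1 at 22.9. In the MIS12 complex MIS12 was at 33.2, NSL1 at 27.4, DSN1 at 20.7 and PMF1 at 14.6. These are levels and not changes, and the longest annotated transcript need not be the one these cells use.

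Genes of related lists moved in the same direction. None of the genes in the 4 lists rose in either class of line. Of 28 other kinetochore and checkpoint genes, 22 fell in the NTC lines (median -0.47) and 23 in the guide lines (median -0.43), among them BUB1B, a checkpoint kinase homologue, at -0.64 (SE 0.05) in the NTC lines, TTK, the MPS1 kinase, at -0.71 (SE 0.07), KIF2C, a microtubule depolymerase, at -0.68 (SE 0.07) and HASPIN, a histone H3 kinase, at -1.04 (SE 0.10). Of 13 subunits of DREAM and MuvB with their partners, 10 fell in the NTC lines (median -0.36) and 9 in the guide lines (median -0.36), with E2F5 at -0.68 (SE 0.08), LIN9 at -0.61 (SE 0.08) and RBL1 at -0.58 (SE 0.08).

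A list of 20 genes of origin licensing and firing, which act in G1 and S phase, is called origin licensing here. Of these 20 genes, 16 fell in the NTC lines (median -0.79) and 18 in the guide lines (median -0.66). ORC1 was at -1.37 (SE 0.07), CDC6 at -1.30 (SE 0.07) and MCM6 at -0.80 (SE 0.04) in the NTC lines. Of 19 cohesin and condensin genes, 16 fell (median -0.30) in the NTC lines and 17 in the guide lines (median -0.44), with NCAPH at -0.75 (SE 0.07), NCAPG at -0.55 (SE 0.06) and RAD21 at -0.41 (SE 0.06). The median of the 40 centromere and kinetochore genes thus lay between those of origin licensing and of cohesin and condensin in both classes of line.

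**Figure D4:**
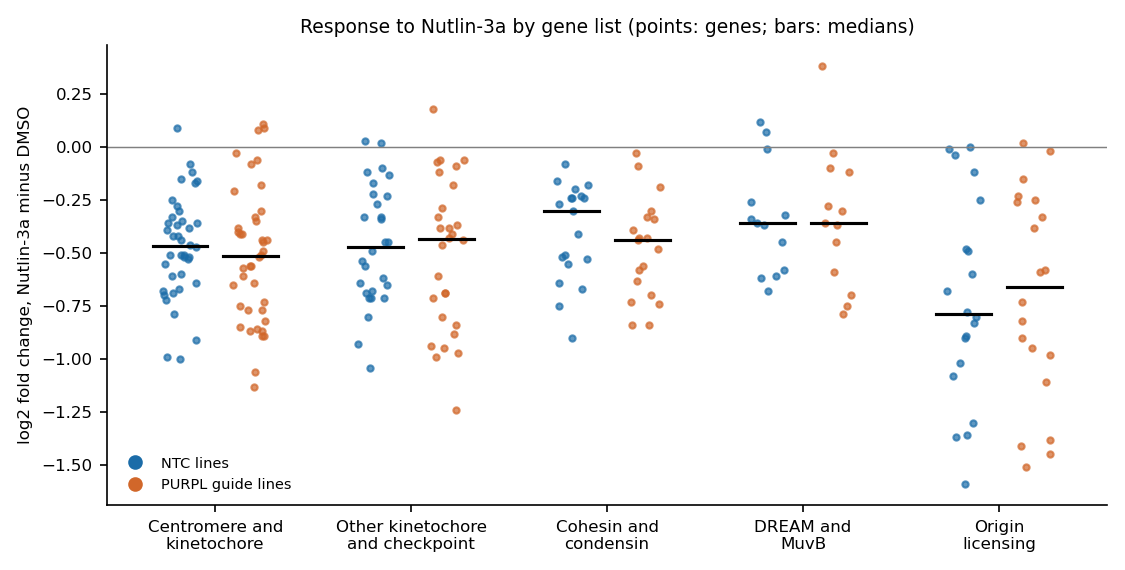
Log2 fold change with Nutlin-3a (y axis) of the genes of 5 lists (x axis) in the NTC lines (blue) and the PURPL guide lines (orange). Each point is a gene and each bar a median. The medians of the 40 centromere and kinetochore genes are -0.46 and -0.52, and origin licensing reaches lowest at -0.79 and -0.66.

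Guides against PURPL were then compared with non-targeting guides over lines, 4 against 2, on counts summed over harvests. In DMSO 0 of the 40 genes passed the threshold in edgeR and 0 in DESeq2, where 0.00601% of all 16648 genes did in edgeR. An unadjusted p below 0.05 was reached by 0 of the 40. The median log2 difference was -0.01, and the lowest adjusted p was 0.825. The smallest unadjusted p-values belonged to MIS18A, at -0.14 (SE 0.06), CENPX, at -0.45 (SE 0.22), CENPB, at -0.30 (SE 0.18), and PMF1, at -0.22 (SE 0.14). With the GC trend removed these differences were -0.18, -0.17, -0.01 and -0.18. None of these 4 genes was shown to differ, and the standard errors leave room for differences of the size printed.

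With Nutlin-3a 0 of the 40 genes passed in edgeR and 0 in DESeq2, where 0.00596% of all 16768 genes did in edgeR. The median difference was -0.08 and 32 of the 40 were lower in the guide lines. An unadjusted p below 0.05 was reached by 8 of the 40 genes (4.77% of all genes). HJURP had the smallest, at -0.16 (SE 0.05), followed by CENPF, at -0.13 (SE 0.04), NUF2, at -0.16 (SE 0.05), and SGO1, at -0.17 (SE 0.06). The lowest adjusted p was 0.828.

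The difference between the responses of the guide and the NTC lines was tested within 1 model that pairs both treatments of a line. Here 0 of the 40 genes passed in edgeR and 0 in DESeq2, where 0% of all 17106 genes did in edgeR. An unadjusted p below 0.05 was reached by 8 of the 40 (5.81% of all genes). The median difference was -0.09 and 30 of the 40 were negative, which means a larger fall in the guide lines. CENPE had -0.42 (SE 0.14), CENPF -0.34 (SE 0.12), KNTC1 -0.28 (SE 0.11) and SGO1 -0.24 (SE 0.10), the 4 smallest p-values, and CENPX, at 0.60 (SE 0.26), and CENPB, at 0.41 (SE 0.19), lay on the other side of 0. The lowest adjusted p was 0.613. The larger counts of genes called in the guide lines than in the NTC lines are therefore not shown to be a difference in response.

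The counts of 0 in DMSO and in the difference of responses depended on NTC2. Without NTC2, which leaves NTC1 alone as the control, 7 of the 40 genes were called lower and 12 higher in the guide lines in DMSO, where 38.1% of all genes were called in either direction. In the difference of responses 8 were then called negative and 4 positive, where 17.4% of all genes were called, and CENPE was at -0.67 and CENPF at -0.56. With 1 control line the spread comes from the 4 guide lines alone, and NTC1 is assumed to vary as they do. Without any other single line these counts were 0. NTC1 DMSO harvest 3 had a GC slope of 0.233, near the upper end of the 23. In the joint test of all 6 lines in DMSO, 0 of the 40 genes passed in edgeR, where 0.0672% of all genes did. In that joint test 6 of the 40 had an unadjusted p below 0.05 (13.2% of all genes): CENPE, SGO2, PMF1, KNL1, CENPI and CENPB.

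Transcript GC content moved with several of these values. The 40 genes had a median GC content of 41.6%, against 47.5% over the genes tested, and 28 of them lay below the latter. The 7 above 51% were CENPB, CENPX, CENPM, CENPT, CENPO, SPC24 and PMF1. The cut at 51% was not set in advance, so counts on either side of it only describe these values. All 7 were higher in the divergent library than the median of the other 7 guide libraries with Nutlin-3a, by up to 3.19 on the log2 scale for CENPX, and 31 of the other 33 genes were lower, down to -1.46 for SGO2. In the guide comparison in DMSO 6 of the 7 were lower in the guide lines, where 21 of all 40 were. In the difference of responses 6 of the 7 were positive and 29 of the other 33 negative. With the GC trend removed the median difference of responses of the 40 genes was -0.02 in place of -0.09. The part of GC content in these values was not tested beyond that refit.

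**Figure D5:**
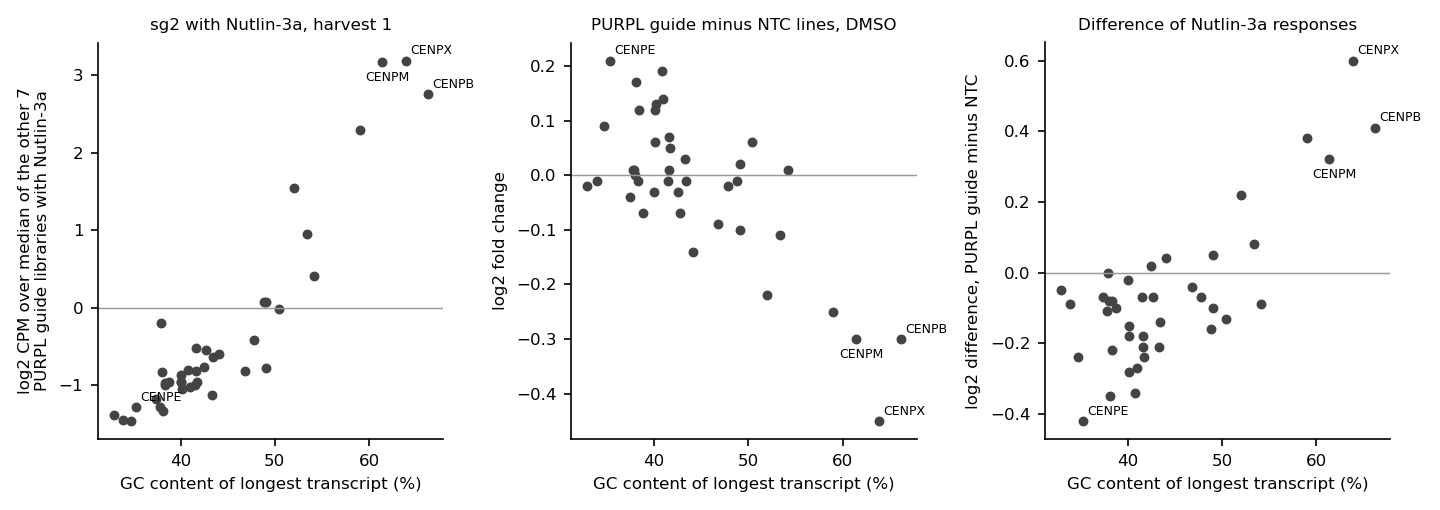
GC content of the longest transcript (x axis, percent) of the 40 genes against, on the y axes, the log2 CPM of the divergent library over the median of the other 7 guide libraries with Nutlin-3a (left), the log2 difference between guide and NTC lines in DMSO (middle) and the log2 difference of their responses (right). CENPX and CENPB lie at 3.19 and 2.76 on the left and at 0.60 and 0.41 on the right, and at -0.45 and -0.30 in the middle.

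The falls with Nutlin-3a held when the GC trend was removed, at 31 of 40 genes in the NTC lines and 33 of 40 in the guide lines. Calls over all genes, in either direction, then also rose, to 5093 from 4132 in the NTC lines and to 7612 from 6426 in the guide lines. With the divergent library put back, 12 of the 40 passed in the NTC lines, where 1344 genes passed in all against 4132 without it, although that library is not from an NTC line. CENPA, HJURP, DSN1, NDC80 and SPDL1 were among the 12. The log2 fold change of CENPA in the NTC lines was then -0.97 and that of HJURP -0.95. The library enters the estimate of spread that all contrasts share. In the guide lines 31 passed with it, where 5603 genes passed in all.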

How the data were processed

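Messenger RNA was sequenced with a stranded TruSeq kit, per the labels. The authors deposited estimated counts for each gene and library. Build hg38 and the tools cutadapt, STAR, RSEM and DESeq2 come from the submitters' processing notes. Tool versions and the use of strand in counting were not given in the sources used here. Of the 40 genes, 17 share exonic bases with another gene in GENCODE release 29, so their counts are uncertain.

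Counts were rounded, since 5.6% to 7.16% per library had a fractional part. The 45 rows for second copies of pseudoautosomal genes (0.0222% of counts) were added to their X copies. Genes were filtered with filterByExpr (minimum count 10), over all 24 libraries for the fits on single libraries, which left 16371 genes. For the guide comparisons the filter was run on their line sums. It left 16648 genes in DMSO, 16768 with Nutlin-3a and 17106 for the difference of responses. Counts were scaled by TMM and tested with the robust quasi-likelihood F test of edgeR 4.0.16 (limma 3.58.1, R 4.3.3), with Benjamini-Hochberg adjustment over all genes tested. Responses to Nutlin-3a were contrasts of 12 group means over 23 libraries, with 11 residual degrees of freedom, so their p-values rest on how far harvests of 1 line differ. Guide classes were compared on sums over harvests of 6 lines, so those p-values rest on how far lines differ, and sg2 with Nutlin-3a was then harvest 3 alone. An SE is the size of the log2 fold change over the square root of F. The fits were run on simulated counts with planted changes. These counts held the spread between harvests but no other difference between lines. They therefore cannot show how the guide comparisons behave where lines differ.

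The 40 genes, the other lists, the tests, the alternatives and the omission of the divergent library were chosen with earlier results of these data known. Full values were given in each role for the genes of smallest and largest p in the NTC lines (3 smallest in the 2 large groups) and for CENPA and HJURP. CENPB, CENPX, CENPE and CENPF and the rise of CENPW were given values by library after they were seen. Alternatives were all 24 libraries, RLE size factors, no filter, each library's lowess trend on transcript GC content removed (GC known for 99.7% of genes), the harvest number as a block, DESeq2 1.42.0, and each library or line left out.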

Additional observations from a re-analysis of the deposited data

Results flagged for a closer look

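In 9 of 160 groups of 4 to 8 libraries, formed for each gene by guide class and treatment, 1 library lay far from the others by Dixon's test at 95%, which chance alone does in about 1 in 20 groups. The library of sg6 in DMSO from harvest 1 accounted for 4 of the 9. It was high for CENPU at 119.3 CPM (others 104.7 to 110.2), NDC80 at 140.2 CPM (others 120.4 to 129.3) and CENPE at 167.7 CPM (others 149.7 to 157.1), and low for PMF1 at 13.8 CPM (others 15.5 to 17.0).

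With Nutlin-3a the sg5 library from harvest 1 was low for CENPA at 24.6 CPM (others 31.8 to 35.4) and ZWINT at 98.3 CPM (others 114.8 to 127.2). The sg5 library from harvest 3 was high for CENPX at 13.7 CPM (others 5.30 to 7.62), and its GC slope of 0.257 was the highest of the 23 libraries fitted. NTC2 with Nutlin-3a from harvest 1 was low for SPC24 at 15.3 CPM (others 16.6 to 16.8) and high for SGO2 at 98 CPM (others 91.3 to 92.2).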

How the results depend on the processing

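The number of the 40 genes that fell in the NTC lines was 29 with RLE size factors, 33 with no filter, 31 with the GC trend removed, 30 in DESeq2 and 25 to 30 with each library left out, but 12 with all 24 libraries. In DESeq2 1 rose. Calls over all genes in the NTC lines, in either direction, were 3784 with RLE size factors and 4176 with no filter. They were 5093 with the GC trend removed, 4043 in DESeq2 and 2932 to 4520 with each library left out, against 4132. Of the 40 genes, 31 to 34 fell in the guide lines under all these settings, where 5603 to 7612 of all genes were called, against 6426. The number of the 40 that rose there was 0 with all 24 libraries and 0 with no filter, and 0 to 1 with each library left out. CENPB in the guide lines changed sign with all 24 libraries, to 0.05. Without NTC2 the genes called between guide classes in DMSO were 7 lower and 12 higher of 40, where 38.1% of all genes were called (leaving out each line, 0 to 7 and 0 to 12), and in the difference of responses 8 and 4, where 17.4% were (0 to 8 and 0 to 4). The cause was not tested. Between guide classes with Nutlin-3a the count was 0 under each alternative run.

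Over all genes, 1344 were called in the NTC lines with all 24 libraries against 4132, and without NTC2 6344 between guide classes in DMSO against 1 and 2971 in the difference of responses against 0. Genes that lost the NTC call with all 24 libraries were CENPB, OIP5, CENPC, CENPI, CENPK, CENPL, CENPN, CENPQ, CENPU, MIS12, NSL1, SPC24, SPC25, ZWINT, ZWILCH, CENPE, CENPF and SGO2. In the guide lines CENPB, CENPW, SPC24 and SKA2 lost theirs.

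The harvest numbers were not shown to pair the samples, since deviations of same-numbered libraries correlated from -0.541 to 0.579 over 55 pairs of groups (median 0.125). With the harvest number as a replicate block 31 of the 40 genes fell in the NTC lines and 34 in the guide lines. Calls over all genes were then 4558 and 6721. With that block 0 of the 40 were called between guide classes in either treatment or in the difference of responses. Low depth bears mainly on CENPM, with 128 counts in its shallowest library.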
